A study of Mus musculus with 1187 samples.

Results

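Klf2 and Klf4, a pair of flow-responsive transcription factors, and Nos3 and Nos1, the endothelial and neuronal nitric oxide synthases, were followed across 1187 single brain endothelial cells. The genes were taken by symbol, as 4 of the 46517 rows of the deposited count table, and Nos1 was described in cells with and without a read of the arterial genes Bmx or Gkn3. The cells came from adult C57BL/6 mice whose endothelium was marked green through Cldn5 and whose pericytes and oligodendrocyte precursors were marked red through Cspg4. Green cells without red were sorted one to a well and sequenced by the Smart-seq2 method, which copies full-length polyadenylated RNA and carries no molecular identifiers. The labels name 597 cells of Pdgfb ret/ret mice, which lack the retention motif of PDGF-B on both alleles and are short of brain pericytes, and 590 cells of heterozygous Pdgfb ret/+ mice, so every mouse carried at least one ret allele and both reporters. No label names an animal.

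The columns of the table give a plate and a well, while the labels number the cells, so no cell could be given a genotype. The values below describe both genotypes together as 1 pooled sample spread over plates 521, 522, 523 and 524. Plate may coincide with genotype or animal, and these cannot be told apart. With 1 pooled sample no test was possible. Plate values stand beside the main results, and a pair of pooled levels given without them has no measure of spread.

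Blood flowing over endothelium raises KLF2 and KLF4 through the kinases MEKK3, MEK5 and ERK5 and the MEF2 transcription factors, and the KLF pair in turn raises genes that keep vessels open and quiet, among them the endothelial nitric oxide synthase. Nitric oxide made by that enzyme from arginine relaxes the smooth muscle around the vessel. The neuronal synthase is best known in neurons, where it makes nitric oxide in response to calcium. Bmx, a Tec family kinase, and Gkn3, a gastrokine, are used as markers of arterial endothelium in the mouse brain.

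The promoters of Klf2 and Klf4 are shown because the pair moved together from cell to cell. A match to the motif of MEF2 was found in only 1 of the 2 sequences. They are RefSeq sequences of GRCm38.p6, from 250 bases before to 50 bases after the start of the gene, printed 5′ to 3′ along the strand of the gene. The table held promoters for 3 of the 4 genes, Klf2, Klf4 and Nos1. That of Nos1 belongs to one RefSeq start, at chr5:117866589-117866888, which lies inside the span of the GENCODE gene given with the levels and not at its first base. The Klf2 promoter lies at chr8:72318812-72319111 on the plus strand and the Klf4 promoter at chr4:55532426-55532725 on the minus strand. Capitals mark the match to the MEF2 motif.
Klf2: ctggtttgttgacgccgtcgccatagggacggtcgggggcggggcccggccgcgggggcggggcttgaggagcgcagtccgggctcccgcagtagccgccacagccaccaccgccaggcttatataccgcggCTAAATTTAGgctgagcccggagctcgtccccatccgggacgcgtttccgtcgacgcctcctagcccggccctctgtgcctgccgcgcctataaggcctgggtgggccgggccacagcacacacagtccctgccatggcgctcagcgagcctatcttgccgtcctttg
Klf4: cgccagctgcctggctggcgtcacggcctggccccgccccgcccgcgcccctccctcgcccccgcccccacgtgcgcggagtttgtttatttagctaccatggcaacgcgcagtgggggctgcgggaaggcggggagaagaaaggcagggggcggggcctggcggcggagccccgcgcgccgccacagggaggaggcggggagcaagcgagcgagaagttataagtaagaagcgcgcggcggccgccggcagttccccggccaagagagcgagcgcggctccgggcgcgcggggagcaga
The Klf2 promoter held 1 MEF2 match, which reads the same on both strands and begins 118 bases before the start of the gene (bases 133 to 142 of the sequence). The Klf4 window held 0, as did that of Nos1. Only matches to this motif were counted, sites that differ from it were not, and binding was not measured. On either strand, the MEF2 motif was found in 0.557% of the 32851 RefSeq promoters of this length. The GC box GGGCGG, searched on both strands, had 2 matches in the Klf2 promoter, 4 in that of Klf4 and 0 in that of Nos1, and 35.7% of all promoters held at least 1. Some GC boxes lie next to or within longer runs of G and C: the Klf2 window was 69.3% and the Klf4 window 74.3% G and C, against a median of 52.7% over all promoters. The TATA box TATAAA, present in 13.6% of all promoters on either strand, was found in none of the 3 windows.

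The table held 418924921 reads assigned to genes. The median cell had 360947 reads and 4462 detected genes, with ranges of 100779 to 584112 reads and 1402 to 11043 genes. The plates held 300, 290, 285 and 312 cells, in the order 521, 522, 523 and 524, which is kept throughout. Levels are CPM, the counts of a gene summed over cells and scaled per 1000000 reads. Shares of cells with a read were taken after each cell had been thinned to 100000 reads, which no cell fell below. Intervals are at 95%, Poisson for CPM and Clopper-Pearson for shares, and cover counting error only, since reads of one library are not independent molecules. Of the 10 endothelial markers, all 10 were at 5 CPM or more, and 15 of the 1187 cells had at least 3 markers of another cell type at 100 CPM.

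Klf2, Klf4 and Nos3 were expressed broadly in brain endothelium, while Nos1 was read in few cells. Klf2 (chromosome 8, 72319033 to 72321656, plus strand, GRCm38) stood at 383.7 CPM over all cells (381.8 to 385.6), and 86.4% of cells had a read at fixed depth. Klf4 (chromosome 4, 55527143 to 55532466, minus strand) stood at 237.3 CPM (235.8 to 238.8) with a read in 63.4% of cells. Nos3 (chromosome 5, 24364810 to 24384474, plus strand) stood at 358.0 CPM (356.2 to 359.8) with a read in 80.7% of cells. Nos1 (chromosome 5, 117781032 to 117958840, plus strand) stood at 24.5 CPM (24.0 to 24.9) with a read in 6.57% of cells (5.23% to 8.13%). Without thinning the shares were 89.9% for Klf2, 69.8% for Klf4, 83.5% for Nos3 and 9.60% for Nos1.

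Per kilobase of exon, the scale on which genes can be compared, Klf2 had 207.7 CPM per kb, Nos3 86.7, Klf4 77.8 and Nos1 2.19. The order was the same on plates 521, 522 and 523. On plate 524 Klf4 (100.4 CPM per kb) lay above Nos3 (88.0). Nos3 and Klf4 therefore did not differ beyond their spread over plates, whereas Klf2 was highest and Nos1 lowest on all 4 plates.

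Plate by plate, Klf2 stood at 357.6, 319.5, 464.6 and 391.5 CPM. Klf4 stood at 180.4, 168.8, 290.2 and 306.1 CPM. Nos3 stood at 284.0, 363.3, 425.1 and 363.4 CPM. Klf2 and Klf4 were lowest on plate 522, and Nos3 was lowest on plate 521. Nos1 stood at 33.5, 17.6, 28.5 and 17.9 CPM, highest on plate 521. The highest plate was 1.45-fold the lowest for Klf2, 1.81-fold for Klf4, 1.495-fold for Nos3 and 1.85-fold for Nos1. Of the 11461 genes at 5 CPM or more, 50.7% had a highest plate at least 1.5-fold the lowest and the median was 1.51-fold; Klf4 and Nos1 passed that fold and Klf2 and Nos3 did not. The plates also differed in arterial cells: those with Bmx or Gkn3 numbered 169, 129, 83 and 86.

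**Figure D1:**
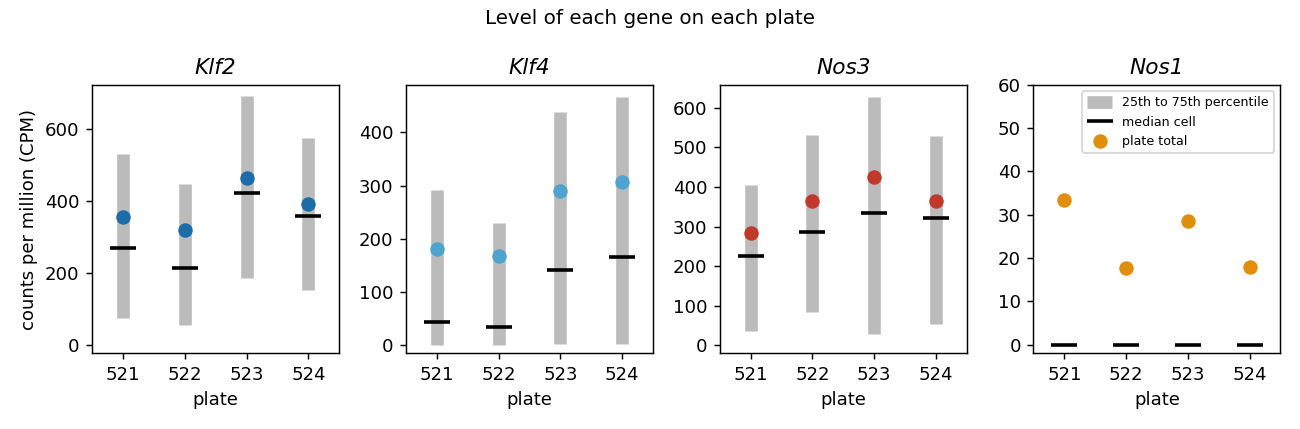
Level in CPM (y axis) of each gene on plates 521 to 524 (x axis): dots are counts summed over the plate, black bars the median cell, grey bars the range from the 25th to the 75th percentile of cells. The median cell lies below the plate total for Klf2, Klf4 and Nos3 on every plate, and the median and the grey bar of Nos1 are at 0 on all 4 plates while its totals run from 17.6 to 33.5 CPM.

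From cell to cell, the 4 genes were spread unequally. The 25th and 75th percentiles of cells ran from 103.6 to 577.0 CPM for Klf2 (median 315.4), from 0 to 370.1 CPM for Klf4 (median 89.7) and from 50.8 to 524.1 CPM for Nos3 (median 288.0). The 10 cells with most reads of a gene held 3.89% of its reads for Klf2, 6.50% for Klf4 and 4.21% for Nos3. For Nos1 the 10 top cells held 44.8%, and its highest cell reached 2901 CPM. At fixed depth, 590 cells (49.7%) had reads of Klf2, Klf4 and Nos3 together, 406 had reads of 2 of them, 155 of 1 and 36 (3.03%) of none.

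Klf2 and Klf4 varied together. The rank correlation of their thinned counts across the cells of a plate was 0.48, 0.39, 0.42 and 0.32, with a mean of 0.40. Of the 1026 cells with a Klf2 read, 68.2% (65.3% to 71.1%) also had Klf4, against 32.9% (25.7% to 40.8%) of the 161 cells without Klf2. Cells of one plate share reagents and sequencing, and the correlation is given as a description. With the total reads of a cell Klf2 and Klf4 had mean correlations of -0.01 each, and with the number of genes detected of 0.03 and 0.11.

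The genes closest to both factors were immediate early genes, which cells switch on within minutes of a stimulus, including the stress of dissociation. Over 10022 genes read in at least 10% of thinned cells, those nearest to Klf2 were the MAP kinase phosphatase Dusp1 (mean correlation 0.43), the orphan nuclear receptor Nr4a1 (0.42), the AP-1 subunit Fos (0.40), Klf4, Jun (0.39), the endothelial early response gene Apold1 (0.38), the RNA decay factor Zfp36 (0.38) and Junb (0.37). For Klf4 they were Fos (0.42), Nr4a1 (0.41), Jun (0.40), Klf2, Dusp1 (0.39), Zfp36 (0.38), Junb (0.36) and Junos (0.33), the opposite-strand transcript of the Jun locus. All 16 genes on the list of immediate early and dissociation genes were positively correlated with Klf2, and with Klf4, on all 4 plates, as were 12.0% and 15.7% of all ranked genes. Their median correlation was 0.34 with Klf2 and 0.32 with Klf4, beside 0.01 for either factor over all ranked genes.

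The levels showed the same gradient. When the cells of each plate were ranked by the summed immediate early genes and cut into 4 equal groups, Klf2 stood at 220.4, 269.3, 381.9 and 662.8 CPM from the lowest group to the highest. Klf4 stood at 82.6, 128.9, 274.4 and 462.9 CPM in the same groups. The highest group lay above the lowest on all 4 plates for both genes. Klf4 had a read in 36.8% of the cells of the lowest group and in 86.6% of the highest. Once the summed immediate early genes were held constant in a partial rank correlation, that between Klf2 and Klf4 was 0.19, 0.24, 0.21 and 0.14 by plate (mean 0.20). The part of the immediate early response in the levels of Klf2 and Klf4 was not tested.

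**Figure D2:**
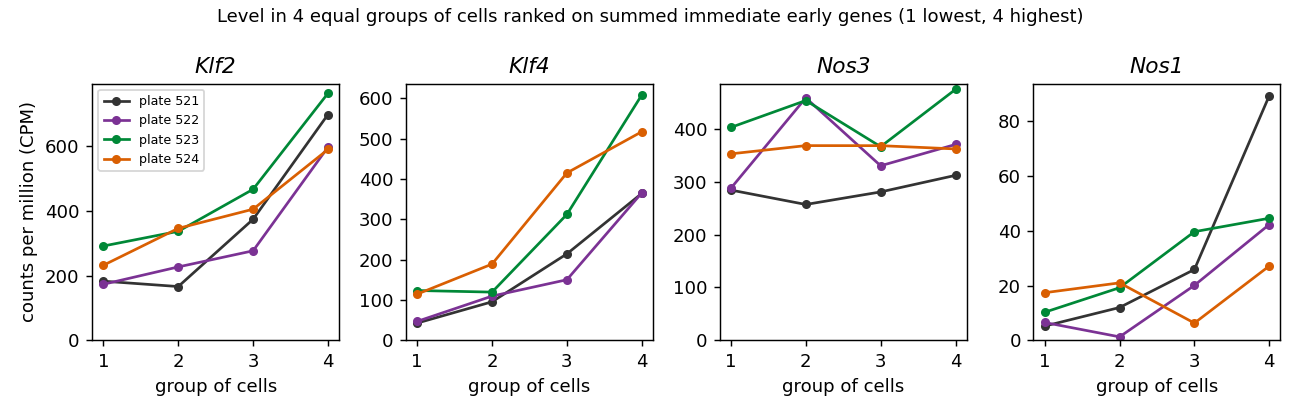
CPM (y axis) of each gene in 4 equal groups of the cells of a plate, ranked from lowest (1) to highest (4) on the summed immediate early genes (x axis), with 1 line per plate. Klf2 and Klf4 are higher in group 4 than in group 1 on every plate. Nos3 is also higher in group 4 on every plate, by less than either factor. Nos1 rests on few cells in each group.

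Genes upstream and downstream of the KLF pair were less closely tied to it. Of the 12 genes of the induction cascade, Mef2a (0.08) and the CCM complex gene Pdcd10 (0.08) were highest for Klf2, and the list's median was 0.04. Of these 12, 6 were positive with Klf2 and 5 with Klf4 on all 4 plates, beside 12.0% and 15.7% of all ranked genes. Of the 14 ranked genes that take part in sensing flow, the sphingosine phosphate receptor S1pr1 was highest (0.13), the mechanosensitive channel Piezo1 had 0.04 and Eng, which encodes endoglin, had -0.14. Among the genes that the KLF factors are known to raise, only 3 of 10 were read in enough cells: the protease Adamts1 (0.25 with Klf2 and 0.23 with Klf4), the anticoagulant receptor Thbd (0.18 and 0.15) and Hmox1 (-0.01 and 0.04). Adamts1 and Thbd were positive on all 4 plates with both factors. Among those known to be lowered, the matrix gene Cyr61 had 0.24 with Klf2 and 0.19 with Klf4, the vasoconstrictor Edn1 0.06 and 0.08, and Ctgf -0.21 and -0.15. Beside these, 5% of all ranked genes had a correlation above 0.07 with Klf2 and 0.08 with Klf4.

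Of the 15 other KLF genes, 9 were ranked, and 7 of these were positive with Klf2 on all 4 plates, beside 12.0% of all ranked genes. Klf6, a broadly expressed early response factor, was highest, with 0.21 for Klf2 and 0.22 for Klf4. It stood at 379.4 CPM in cells with Bmx or Gkn3 and 359.5 CPM in cells with neither.

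Nos3 was weakly correlated with the factors that are known to raise it. Its correlation with Klf2 was 0.16, 0.11, 0.01 and 0.01 by plate (mean 0.07), and with Klf4 0.26, 0.09, 0.15 and 0.07 (mean 0.14), beside a 95th percentile of 0.06 over all ranked genes. With the summed immediate early genes it was 0.04. From the lowest group of cells on those genes to the highest, Nos3 stood at 333.1, 382.7, 336.7 and 379.1 CPM. By plate it stood at 284.7, 288.3, 403.6 and 353.4 CPM in the lowest group. In the highest group it stood at 312.6, 371.2, 475.6 and 362.7 CPM, above the lowest on every plate. Of the 958 cells with a Nos3 read, 66.5% (63.4% to 69.5%) also had Klf4, against 50.7% (44.0% to 57.3%) of the 229 cells without Nos3.

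The genes nearest to Nos3 were its own neighbours in the genome. Gm15587 had a mean correlation of 0.88 and Atg9b, an autophagy gene, of 0.68. Both are annotated on the opposite strand and overlap exons of Nos3, by 1040 and 294 bases. The sources used here do not say how strands were handled in counting. Within the shared bases, reads of Nos3 and of these 2 genes therefore cannot be told apart. Nos3 has 4132 exon bases, and its level carries this uncertainty over the shared part. Gm15587 was listed at 128.7 CPM and Atg9b at 31.1 CPM. Every other gene was far lower: the next were the vesicle traffic gene Rab11a (0.14), Klf4 (0.14), the transglutaminase Tgm2 (0.14), the riboflavin transporter Slc52a3 (0.13), Pcp4l1 (0.13) and AC147560.1 (0.13), which are weak correlations. Among the 12 genes that bind or modify the endothelial synthase, caveolin 1 (Cav1), its inhibitor in caveolae, was highest at 0.07 and Calm2, 1 of the 3 calmodulin genes, lowest at -0.04.

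Cells with a read of Bmx or Gkn3 numbered 467 (39.3%), against 720 with neither. Their median depth was 363867 against 359144 reads and their median number of genes 4780 against 4318. The split carried the arterial programme: 15 of the 19 arterial markers were at least 2-fold higher in cells with Bmx or Gkn3. The median log2 ratio of the list was 2.20. Among the 15, Gja5, Vegfc, Mgp, Fbln5, Eln and Cytl1 reached 5 CPM in that class alone. Of the 8 venous markers at 5 CPM or more, Aplnr was at least 2-fold lower, as were the capillary markers Tfrc and Car4 among 9. The class is broad, since 129 of the 467 cells had Bmx and Gkn3 together at less than 10 CPM. Over the 11787 genes at 5 CPM or more on either side, 2.75% were at least 2-fold higher in cells with Bmx or Gkn3 and 1.3% at least 2-fold lower, with a median log2 ratio of 0.01.

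Of the 4 genes, Nos1 alone was past 2-fold between these cells. It stood at 60.5 CPM (59.3 to 61.7) in cells with Bmx or Gkn3, against 0.779 CPM (0.674 to 0.896) in cells with neither, a log2 ratio of 5.11. By plate it stood at 58.7, 37.1, 98.4 and 60.2 CPM in cells with Bmx or Gkn3, against 0.363, 2.70, 0.178 and 0.209 CPM in the others. The log2 ratios by plate were 5.45, 3.37, 6.40 and 5.66. At fixed depth 13.7% of cells with Bmx or Gkn3 had a Nos1 read (10.7% to 17.2%), against 1.94% of the others (1.07% to 3.24%). Cells with Bmx or Gkn3 held 98.1% of all Nos1 reads.

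Among the 8574 genes at 20 CPM or more on either side, the ratio of Nos1 ranked 2nd, Bmx and Gkn3 left out. The elastic fibre gene Fbln5 ranked first with 112.7 CPM in cells with Bmx or Gkn3 and 1.24 CPM in the others (log2 ratio 5.67). Below Nos1 came the calcification inhibitor Mgp (4.84), Prune2 (4.52), the fibrillin gene Fbn1 (4.34), the desmosome gene Dsp (4.31) and the gap junction gene Gja4 (4.04). All of these were higher on all 4 plates. Nos1 and each gene named with it reached 20 CPM only in cells with Bmx or Gkn3. They passed the filter through the class where they are high, so the rank is a description only.

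Klf2, Klf4 and Nos3 lay near the background. Klf2 stood at 372.6, 354.8, 523.1 and 353.2 CPM by plate in cells with Bmx or Gkn3, against 337.9, 292.6, 440.9 and 407.5 CPM in cells with neither. It was higher on 3 plates and lower on plate 524, and the pooled log2 ratio was 0.05. Klf4 stood at 184.4, 186.4, 303.5 and 255.5 CPM in cells with Bmx or Gkn3, against 175.2, 155.3, 284.8 and 327.3 CPM in the others. Its pooled log2 ratio was -0.18 although it was higher on 3 of the 4 plates. Plates 521 and 522, which had least Klf4 in both classes, held 169 and 129 of the 467 cells with Bmx or Gkn3. Nos3 stood at 296.6, 321.8, 417.4 and 420.2 CPM in cells with Bmx or Gkn3, against 267.5, 395.0, 428.2 and 339.6 CPM in the others, higher on 2 plates and lower on 2. Its pooled log2 ratio was -0.06.

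Nos2, the inducible synthase and the remaining gene of the family, went the other way. It stood at 14.4 CPM in cells with Bmx or Gkn3, against 37.6 CPM in the others (log2 ratio -1.33), and was lower on all 4 plates with log2 ratios of -0.31, -0.98, -0.61 and -2.74, of which that of plate 524 alone was past 2-fold. Over all cells it had a read in 14.6% at fixed depth.

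By level, Nos1 followed Bmx more than Gkn3. The 177 cells with reads of both had 110.0 CPM of Nos1, and 26.0% of them had a Nos1 read (19.7% to 33.1%). The 164 cells with Bmx and no Gkn3 had 49.4 CPM and 7.32% (3.84% to 12.4%). The 126 cells with Gkn3 and no Bmx had 4.66 CPM and 4.76% (1.77% to 10.1%). By plate the cells with Bmx alone stood at 56.7, 26.1, 77.5 and 43.8 CPM, and those with Gkn3 alone at 3.31, 0.836 and 20.7 CPM on plates 521, 523 and 524, with no read in the 38 such cells of plate 522. The shares of these 2 classes overlap in their intervals. By the level of the 2 arterial genes, 2.33% of cells with Bmx and Gkn3 summed above 0 and under 10 CPM had a Nos1 read at fixed depth, 9.68% of those with 10 to 100 CPM and 19.9% of those above. On plates 521 and 522 the upper ranges were close, 13.3% and 12.5% in the middle range and 14.0% and 14.1% above it. The CPM did not grow steadily: the 62 cells of the middle range stood at 71.1 CPM pooled but at 120.8 and 48.8 CPM on plates 521 and 522 and at most 0.302 CPM on the other two plates, while the cells above 100 CPM stood at 66.7, 46.4, 190.1 and 87.3 CPM.

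**Figure D3:**
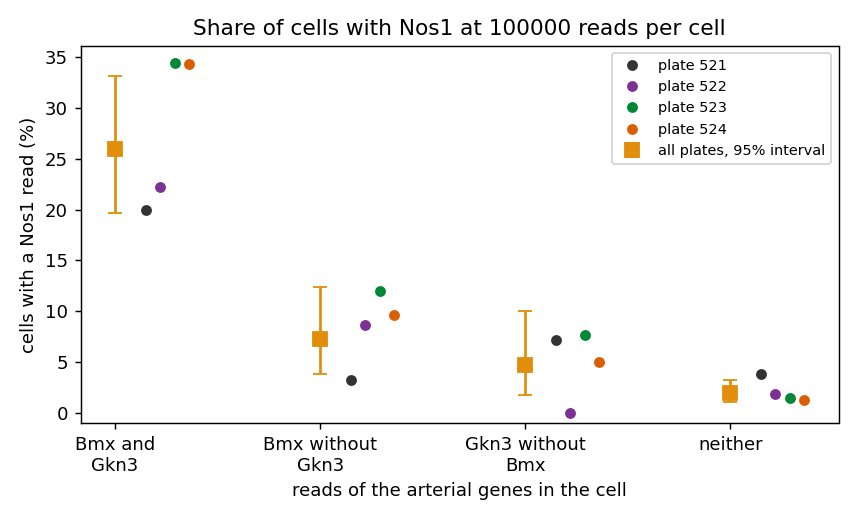
Share of cells with a Nos1 read at 100000 reads per cell (y axis) by the arterial genes read in the cell (x axis): squares are all plates with 95% Clopper-Pearson intervals, dots the single plates. Cells with both Bmx and Gkn3 stand at 26.0%, above the 3 other classes on every plate, and cells with neither at 1.94%.

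Cells with many Nos1 reads and cells with few differed in their arterial genes. Nos1 reached 10 CPM in 61 cells, 18, 14, 14 and 15 by plate, and 57 of the 61 had a Bmx or Gkn3 read. The other 4 cells carried 3 to 10 of the 19 arterial markers at 10 CPM or more (median 8), against a median of 3 over all cells. A further 53 cells had 1 to 4 Nos1 reads, below 10 CPM, and 20 of these had Bmx or Gkn3, a share close to the 39.3% of all cells. Most arterial cells had no Nos1: of the 467 cells with Bmx or Gkn3, 390 had no Nos1 read at full depth. Among cells with neither gene, those with the venous genes Nr2f2 or Slc38a5 at 10 CPM (404 cells) had 0.411, 0.573, 0.206 and 0.0757 CPM of Nos1 by plate, and the remaining 316 had 0.264, 6.22, 0.153 and 0.350 CPM. The value of 6.22 CPM includes 1 cell of 304.7 CPM, and plate 522 is also the one with the lowest log2 ratio of Nos1 (3.37).

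**Figure D4:**
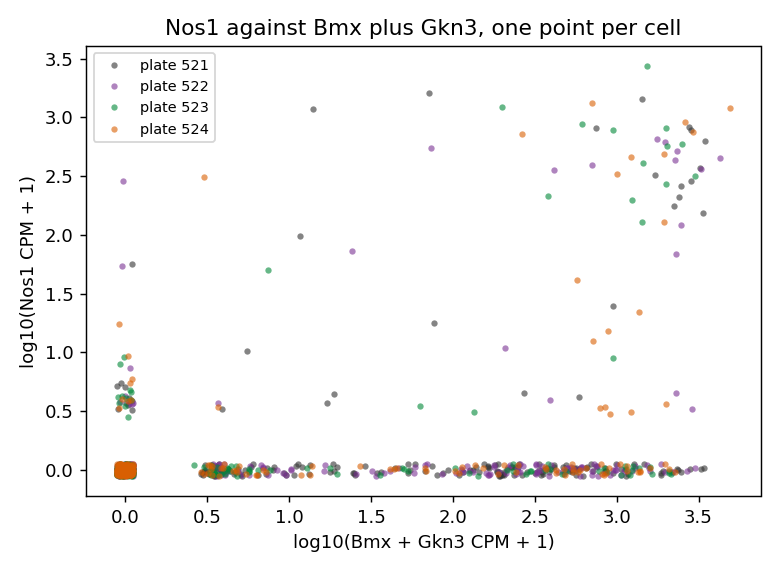
Each point is a cell: log10 of the summed Bmx and Gkn3 CPM plus 1 (x axis) against log10 of Nos1 CPM plus 1 (y axis), coloured by plate, with a small random offset. Of the 61 cells with Nos1 at 10 CPM or more, 57 have Bmx or Gkn3, and most cells with high Bmx and Gkn3 lie on the line of no Nos1 read.

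Within the arterial cells, Nos1 went with genes of the elastic matrix. The contrast of cells with and without Nos1 is a description, because the cells were split by the measured gene. Of the cells with Bmx and Gkn3 summed at 100 CPM or more, 49 had Nos1 at 10 CPM and 214 had no Nos1 read. Over the 12175 genes at 5 CPM or more on either side of this split, 10.7% were at least 2-fold higher and 15% at least 2-fold lower in the cells with Nos1. Fbln5 stood at 913.7 CPM in the cells with Nos1 and 19.7 CPM in those without, Mgp at 584.5 and 22.2 CPM, and the elastin gene Eln at 265.2 and 6.01 CPM, and all 3 were higher on all 4 plates. Of the 9 capillary markers 6 were at least 2-fold lower, as were 6 of the 7 measured venous markers, while the capillary gene Rgcc stood at 92.6 and 96.3 CPM and the venous receptor gene Ephb4 at 117.6 and 112.2 CPM. The amino acid transporter Slc7a5 stood at 42.0 CPM in the cells with Nos1 and 719.3 CPM in those without, the transferrin receptor Tfrc at 24.5 and 350.7 CPM, and Slc38a5 at 3.64 and 344.0 CPM. Of the 10 endothelial markers, 0 were at least 2-fold higher and 2 at least 2-fold lower in the cells with Nos1. These 2 were Kdr, at 259.7 and 601.9 CPM, and Slco1a4, at 1178 and 3713 CPM. The tight junction gene Cldn5 stood at 4005 and 4143 CPM. The other 3 genes were also higher in the cells with Nos1, Klf2 at 674.5 and 380.9 CPM, Klf4 at 509.4 and 195.8 CPM and Nos3 at 471.8 and 310.0 CPM, as was Fos at 1883 and 912.3 CPM. Klf4 and Nos3 were higher on all 4 plates and Klf2 on 3. On plate 524 Klf2 stood at 334.4 CPM in the cells with Nos1 and 353.7 CPM in those without.

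Of the cells with Bmx or Gkn3, 47 also had at least 2 of Eln, Mgp and Fbln5 at 10 CPM, genes chosen with their values known. These 47 cells held 78.5% of all Nos1 reads at 482.0 CPM, and 39 of them, 83.0% (69.2% to 92.3%), had a Nos1 read at fixed depth. The share was 86.7%, 75.0%, 80.0% and 90.0% by plate, over 15, 12, 10 and 10 cells. The 40 cells with 1 of the 3 genes had 62.2 CPM and 20.0%, and the 380 cells with none had 8.37 CPM and 4.47%.

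Only genes read in at least 10% of thinned cells were ranked by correlation, which left out Fbln5, Mgp and Eln. Among the ranked genes, those nearest to Nos1 across all cells were the alkaline phosphatase Alpl (mean correlation 0.45), Gja4 (0.44), the basement membrane collagen gene Col18a1 (0.43), the microtubule regulator Stmn2 (0.41), Tmem100 (0.39), Bmx (0.36), Aif1l (0.35) and Cd24a (0.35). Nos1 had no read in most cells, so these correlations rest on few cells. Of the 12 ranked arterial markers, 11 were positive on all 4 plates, and none of the 9 capillary markers was, beside 13.1% of all ranked genes.

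Markers of neurons, the other well-known source of Nos1, were at low levels. The 11 neuron markers summed to 25.2 CPM in the 61 cells with Nos1 at 10 CPM, against 16.5 CPM over all cells, and the interneuron peptides Sst and Npy and the glutamate transporter Slc17a7 had no read in those 61 cells, which allows each a share of up to 4.92% by the limit of 3 counts. Other neuron markers had reads in some of the 61 cells, Nrgn in 9 and Gad1, the enzyme of GABA synthesis, in 6. Gad1 stood at 7.39 CPM in cells with Bmx or Gkn3 and 0.135 CPM in the others. Within cells of 100 CPM or more of Bmx and Gkn3, it stood at 20.0 CPM in the 49 with Nos1 and 11.3 CPM in the 214 without. In the same cells Syt1 stood at 5.99 and 0.819 CPM and Nrgn at 3.5 and 6.87 CPM. The 5 smooth muscle markers summed to 11.7 CPM in the cells with Nos1, against 12.1 CPM over all cells. Of the 1187 cells, 0 had 3 neuron or 3 smooth muscle markers at 100 CPM, which allows up to 0.253%.

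Nos1, Klf2 and Klf4 were highest in the cells with most arterial markers. With 0, 1 to 2, 3 to 4, 5 to 6, 7 to 8 and 9 or more of the 19 markers at 10 CPM, Nos1 stood at 0.257, 1.22, 0.266, 3.81, 34.1 and 249.9 CPM. Its share of cells with a read was 2.94%, 1.29%, 1.68%, 3.47%, 9.33% and 52.0% in the same order. The step above 8 markers, a limit chosen after the values were seen, was also present in the factors. Klf2 stood at 769.0, 618.1, 709.2 and 400.9 CPM by plate in the 100 cells with 9 or more markers, against 321.2, 290.9, 442.0 and 390.6 CPM in the 1087 cells with fewer. Klf4 stood at 474.9, 330.4, 435.3 and 356.6 CPM in those 100 cells, against 154.4, 153.3, 276.8 and 301.3 CPM in the rest. Both were higher on all 4 plates, by little on plate 524. Nos3 stood at 413.5, 476.6, 378.0 and 448.1 CPM in the 100 cells, against 272.6, 352.4, 429.5 and 355.5 CPM in the rest, lower on plate 523.

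The immediate early genes moved with these values. They summed to 8934, 8194, 8626 and 5677 CPM by plate in the cells with 9 or more arterial markers, against 3976, 5415, 6426 and 5752 CPM in the rest. On plate 524 these genes were not higher in the cells with 9 or more markers. Klf2 and Klf4 stood at 400.9 and 356.6 CPM in those cells of that plate, against 390.6 and 301.3 CPM in the rest. The cells with 9 or more markers also had more genes detected, a median of 4944 against 4429. The part of either in the higher Klf2 and Klf4 was not tested.

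**Figure D5:**
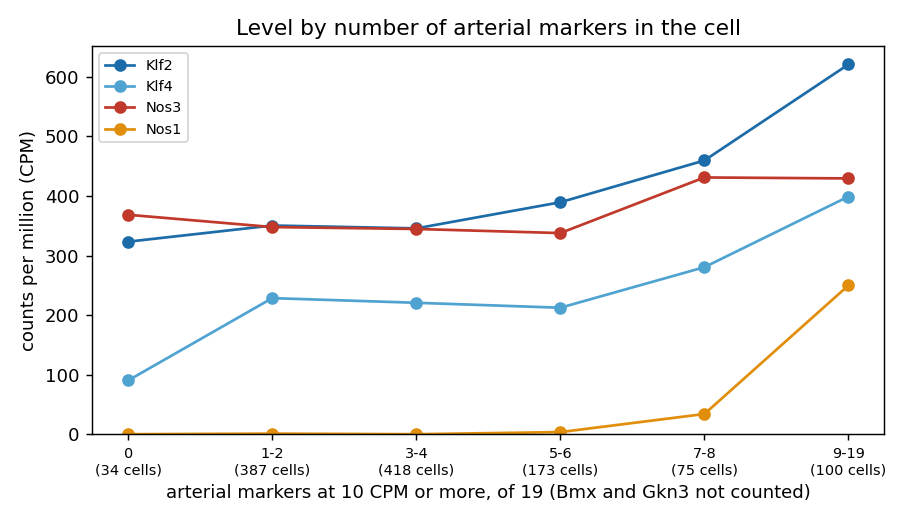
CPM (y axis) of the 4 genes in cells grouped by how many of the 19 arterial markers they carry at 10 CPM or more (x axis, number of cells below each group). Nos1 stays under 4 CPM up to 6 markers and reaches 249.9 CPM at 9 or more, where Klf2 and Klf4 are also at their highest.

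Of the wider nitric oxide pathway, none of the 12 partners and regulators of the endothelial synthase was 2-fold apart between cells with Bmx or Gkn3 and the others, and their median log2 ratio was 0.01. Over all genes 2.75% were at least 2-fold higher and 1.3% at least 2-fold lower, the background for the counts of this and the following lists in the same contrast. Nostrin, which draws the enzyme from the membrane, was lower on all 4 plates, at 235.1 CPM in cells with Bmx or Gkn3 and 360.1 CPM in the others. The palmitoyl transferase gene Zdhhc21 was higher on all 4, at 30.3 and 18.2 CPM. For the cofactor tetrahydrobiopterin, 0 of 5 genes were 2-fold apart. Its entry enzyme Gch1 stood at 105.7 CPM in cells with Bmx or Gkn3 and 138.0 CPM in the others, and the next enzyme, Pts, at 59.5 and 34.6 CPM. Of the neuronal synthase's partners, Dynll1 stood at 286.7 and 295.1 CPM, and Dlg4, the scaffold that holds the enzyme at synapses, at 0.241 and 0.253 CPM. The receptor for nitric oxide was near 0, with Gucy1a3 at 1.87 and 1.88 CPM and Gucy1b3 at 2.08 and 0.787 CPM.

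In arginine supply, 0 of 6 measured genes were 2-fold apart between cells with Bmx or Gkn3 and the others, with a median log2 ratio of 0.17. The arginine transporter Slc7a1 stood at 694.8 CPM in cells with Bmx or Gkn3 and 886.8 CPM in the others. Within cells of 100 CPM or more of Bmx and Gkn3, 3 of 7 measured genes of this list were at least 2-fold higher and 2 at least 2-fold lower in the cells with Nos1. Over all genes measured in this split, 10.7% were at least 2-fold higher and 15% at least 2-fold lower. Slc7a1 stood at 138.1 CPM in the 49 cells with Nos1 and 657.0 CPM in the 214 without. Ass1, which remakes arginine from citrulline, stood at 54.3 CPM in the cells with Nos1 and 15.6 CPM in those without. Ddah1, which clears methylarginine inhibitors of the synthases, stood at 43.5 and 229.1 CPM, and Ddah2 at 71.7 and 29.8 CPM. Slc7a2, a further arginine transporter, stood at 32.1 and 1.26 CPM, and so reached 5 CPM only in the cells with Nos1. Asl stood at 58.0 and 53.0 CPM and Arg2 at 11.3 and 9.17 CPM. Slc7a1 and Ddah1 were lower, and Ass1 and Ddah2 higher, in the cells with Nos1 on all 4 plates.

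Among flow sensors, 1 of 15 measured genes was at least 2-fold apart. The calcium channel Trpv4 stood at 48.6 CPM in cells with Bmx or Gkn3 and 10.1 CPM in the others (log2 ratio 2.17), higher on all 4 plates, while Piezo1 stood at 105.5 and 103.8 CPM. Of the 12 induction cascade genes and the 10 other measured KLF genes, 0 were 2-fold apart. Of the 5 measured KLF targets known to be raised, 1 was at least 2-fold higher. This was Thbs1, at 6.90 CPM in cells with Bmx or Gkn3 and 2.54 CPM in the others. It reached 5 CPM only in cells with Bmx or Gkn3, and was read in 2.78% of those and 1.11% of the others at fixed depth. Thbd stood at 174.2 CPM in cells with Bmx or Gkn3 and 279.2 CPM in the others, Adamts1 at 180.6 and 167.5 CPM and Hmox1 at 37.1 and 29.3 CPM. Thbs1, Thbd, Adamts1 and Hmox1 each differed in sign over plates. Of the 6 measured targets known to be lowered, Edn1 was at least 2-fold higher, at 740.1 CPM in cells with Bmx or Gkn3 and 308.5 CPM in the others, with log2 ratios of 0.66, 1.12, 0.61 and 1.06 by plate, so 2 plates were short of 2-fold. The leukocyte adhesion gene Vcam1 was also higher on all 4 plates, at 269.0 and 150.0 CPM, short of 2-fold.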

How the data were processed

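The authors deposited whole-number counts of reads per gene and cell. The submitters' processing notes name the builds GRCm38 and mm10 and the tools TopHat2 (2.1.1), Subread (1.4.6-p5), SAMtools (0.1.18) and featureCounts. Per the labels' protocols, libraries were Smart-seq2 from sorted cells. Total counts per cell are given with the results. From these counts, CPM of sums, log2 ratios with a prior of 1 CPM, shares in cells thinned to 100000 reads (seed 1) and within-plate Spearman correlations were computed with Python 3.11.15, numpy 2.4.6 and scipy 1.17.1, and the code was tested on simulated data. Genes counted in a comparison had 5 CPM on either side. Coordinates and exon lengths are from GENCODE M21 (GRCm38). Columns could not be tied to labelled cells, so ret/ret and ret/+ cells were not compared, no test was run and plates were kept apart. No doublet caller was run and no cell was removed. The genes, lists and markers were chosen with earlier results of these data known. Named were the 8 genes closest to each member by correlation, positive on all 4 plates, the genes nearest to Nos1 in arterial ratio (5 on each side), and examples from fixed lists. Alternatives changed the rule for arterial cells, prior, scaling, depth, filters, cells and plates kept.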

Additional observations from a re-analysis of the deposited data

How the results depend on the processing

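No paired analysis was possible because no column carries a genotype or an animal. The limits are the unknown genotype, 1 pooled sample, and plates that may stand for animals or genotypes. Low Nos1 counts limit the shares: in cells with neither Bmx nor Gkn3 the share with a Nos1 read was 5.14% with all reads and 0.556% when at least 2 reads at fixed depth were asked for. Nos1 was higher in arterial cells under all 16 alternatives, with log2 ratios between 2.62, when only Gkn3 defined arterial cells, and 6.11 with a prior of 0.1 CPM. When both Bmx and Gkn3 were asked for, the log2 ratio was 3.43 for Nos1, 0.28 for Klf2 and 0.18 for Klf4; cells with 1 of the 2 genes then count among the others, and the cells with both had 451.9 CPM of Klf2 and 263.5 CPM of Klf4. The share of arterial cells with Nos1 was 17.2% when only Gkn3 defined arterial cells, whether or not they had Bmx. It was 18.1% at 10 CPM of Bmx and Gkn3 summed, 26.0% with both genes and 18.5% with at least 5 reads of either, an alternative chosen after seeing the data. The count of genes at least 2-fold higher, 324, was 553 with both genes asked for, 641 without the filter on low values and 125 at 20 CPM. The Klf4 ratio had the sign of the pooled value under 11 of 16 alternatives, and that of Nos3 under 14. The mean correlation of Klf2 and Klf4 was 0.20 given the immediate early genes, and 0.43 and 0.37 in cells with and without Bmx or Gkn3, all chosen after seeing the data. Of the 32 genes named by correlation, 26 were also named when only genes read in 20% of cells were ranked; the 6 others were all neighbours of Nos1, which kept 2 of its 8.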
